A study of Mus musculus with 16 samples.

Results

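The comparison described here is the difference between the responses of the mouse aorta to a Western diet after long and after short feeding. For each locus the diet effect is the log2 ratio of Western to normal diet, and the difference is the diet effect at 22 weeks minus the diet effect at 6 weeks. A positive difference means a higher Western-to-normal ratio at 22 weeks, whether from a rise late, from a fall early, or from both. It was estimated in a model of the 4 group means for every locus that named a gene and reached an FPKM, a level corrected for locus length and library size, of 1 or more in at least 4 of 16 libraries. These were 24091 of the 70603 loci in the table.

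The RNA came from aortas of ApoE-/- mice, a model of atherosclerosis in which loss of apolipoprotein E raises plasma cholesterol. The mice were 8 weeks old when feeding began. They received a Western diet for 22 weeks or a normal purified diet for 22 weeks and were then 30 weeks old, or a Western diet for 6 weeks or a normal purified diet for 6 weeks and were then 14 weeks old. Each of the 4 groups holds 4 libraries. All groups carry the Apoe mutation, which the design text writes as ApoE-/- and the genotype field as "APOE knockdown", and no wild-type aorta was analysed here. The labels give neither the sex of the mice nor whether a library holds 1 aorta or a pool. The p-values therefore measure the spread between these libraries, which may in part be technical. The libraries of the 22-week groups carry a different series of identifiers from those of the 6-week groups. Any effect of the series that is common to both diets cancels within each diet effect, and so within the difference. Between the times on the same diet it does not cancel, and there series, age and weeks of feeding cannot be told apart.

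Fatty acids are made in the cytosol from acetyl-CoA, which comes from citrate exported by mitochondria or from acetate, with NADPH from the pentose phosphate pathway and malic enzyme. Adipocytes of the fat that surrounds the aorta carry much of this pathway and, where the fat is brown, a high content of mitochondria. In plaque, macrophages take up lipoproteins and free their cholesteryl esters in the lysosome, by lysosomal acid lipase, before the cholesterol is stored in droplets or exported. Whole-aorta RNA holds the wall, its plaque and the fat left attached to it, so that fewer cells of a type and less RNA per cell cannot be told apart in any result below.

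Estimated counts totalled 45253433 to 81397840 per library, and 97.44 to 98.38% of them lay in the loci tested. Contractile smooth muscle markers were measured at 21 of 22 genes, and their summed level was 7760 to 12798 CPM (TMM-scaled counts set to a common library size) on Western and 9690 to 18335 CPM on normal diet at 22 weeks. At 6 weeks it was 14900 to 16537 CPM on Western and 16481 to 21535 CPM on normal diet, so that the defining transcripts of an artery were abundant in every library. Several libraries stood apart from the others of their group. Western-diet replicate 2 at 22 weeks was highest of all 16 in genes of fatty acid synthesis, fatty acid oxidation and oxidative phosphorylation. Replicate 1 of both Western-diet groups, normal-diet replicate 4 at 22 weeks and normal-diet replicate 2 at 6 weeks held the highest thymocyte or B cell transcripts of their groups. Results are given with and without these libraries where that matters.

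The diet effect differed between the 2 times at a small set of loci. Of 24091 loci, 44 (0.183%) passed at an adjusted p under 0.05 in edgeR's quasi-likelihood test, 35 (0.145%) with a positive and 9 (0.0374%) with a negative difference. DESeq2, whose counts are given beside those of edgeR below, passed 493 of the same 24091 loci, 402 as higher and 91 as lower. limma on log2(FPKM + 0.5) passed 32, 27 as higher and 5 as lower. At an unadjusted p under 0.05 in edgeR there were 2880 loci (12%), with 6.89% of all loci higher and 5.06% lower. Of the 35 with a positive difference, 30 had a diet effect above 0 at 22 weeks and below 0 at 6 weeks, and the other 5 had diet effects below 0 at both times, less so at 22 weeks. All 9 with a negative difference had a diet effect below 0 at 22 weeks and above 0 at 6 weeks. Choosing loci by a large difference favours diet effects of opposite sign, so these counts describe the 44 and nothing more. Opposite signs occurred in 48.5% of all loci tested, and the difference was positive in 45.1%, the diet effect at 22 weeks in 46.1% and the diet effect at 6 weeks in 50.4%.

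No locus of the 44 passed in the diet effect of both times on its own. At 22 weeks 0.228% of all loci passed, 0.174% above and 0.054% below 0, and at 6 weeks 0.282% passed, 0.0623% above and 0.22% below 0. The 15 higher and 53 lower loci behind the last shares were 237 and 221 in DESeq2, and 36 and 38 in edgeR without Western-diet replicate 1 at 6 weeks. At 22 weeks no locus passed without normal-diet replicate 2 of that time, where 2575 had an unadjusted p under 0.05, or from the 8 libraries of that time alone, where 2841 did. Among the 44, 10 passed at 22 weeks and not at 6 weeks, 21 passed at 6 weeks and not at 22 weeks, and 13 passed at neither. The absolute diet effect was larger at 6 weeks for 27 of the 44 and at 22 weeks for 17. The next counts also follow in part from the choice of the loci and are a description. At 6 weeks the 4 Western-diet libraries lay wholly above or below the 4 normal-diet libraries for 38 of the 44, where 7.39% of all loci showed such a gap and 4.2% showed it with Western below normal. At 22 weeks they did so for 23 of the 44, where 7.51% of all loci did and 4.52% did with Western above normal. Across all loci the diet effects of the 2 times had a Pearson correlation of 0.06, a description over genes that are not independent and share the same 16 libraries.

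**Figure D1:**
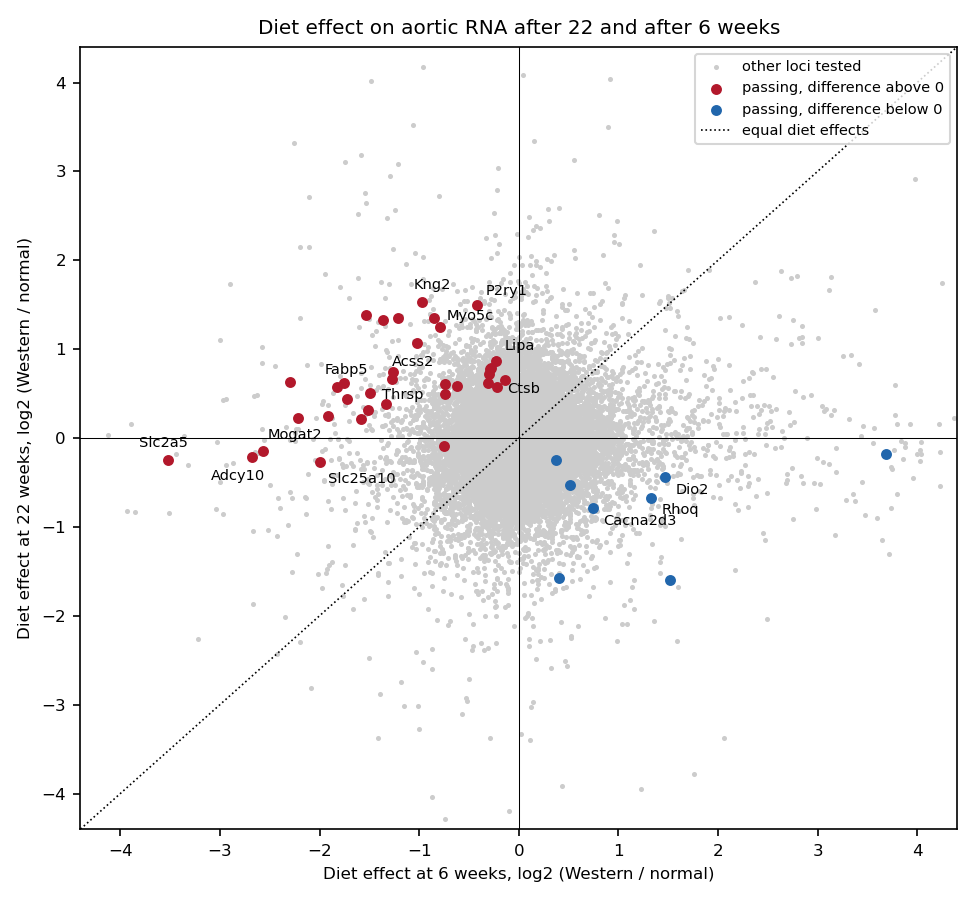
Diet effect (log2 ratio of Western to normal diet) after 22 weeks on the vertical axis against the diet effect after 6 weeks on the horizontal axis, 1 point per locus, with 36 loci outside the axes, of which 1 passed. The 35 loci with a passing positive difference (red) lie above the dotted line of equal effects, 30 of them in the upper left field, and the passing loci with a negative difference (blue) lie in the lower right field.

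The number of passing loci rested on single libraries. The number that passed was 20, 19, 31 and 41 without Western-diet replicates 1 to 4 at 22 weeks and 14, 3, 60 and 54 without normal-diet replicates 1 to 4 at 22 weeks. It was 6, 3, 7 and 74 without Western-diet replicates 1 to 4 at 6 weeks and 5, 4, 10 and 4 without normal-diet replicates 1 to 4 at 6 weeks. Loci that passed in all 16 of these fits were Myo5c, a locus that joins Rhoq with Gm50012, and a locus named Nfrkb. Lipa and Slc25a10 passed in 12 of the 16, and Ctsb and Endov in 1. Without the library of each group that stood highest in lymphocyte genes, which leaves 3 a group, 0 of 24091 loci passed in edgeR and 2731 had an unadjusted p under 0.05.

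Genes that carry sugar into lipid synthesis held 4 of the passing loci and genes of fatty acid synthesis another 2. The list named for sugar uptake and the pentose phosphate pathway also holds genes outside them. Of its 13 measured members, 4 passed with a positive difference, 10 were positive, and the median log2 difference was 0.93, against -0.05 over all loci tested. Among the passing loci only Slc2a5, the Tkt locus and Pgd belong to sugar uptake or the pentose phosphate pathway as such. Of 15 genes of fatty acid synthesis, 2 passed, all 15 were positive, and the median difference was 1.58. Their median diet effect was 0.26 at 22 weeks and -0.88 at 6 weeks, when 4 of them passed as lower on the Western diet. Without Western-diet replicate 2 at 22 weeks and Western-diet replicate 4 at 6 weeks, each the highest of its group in brown fat genes, 5 of the sugar genes and 3 of the synthesis genes passed, with medians of 0.81 and 1.33. Genes named without having passed include some that were chosen after their values were seen, among them Acly, Slc25a1, Taldo1, G6pdx, Khk, Plin2, Fabp3, Npc2, Lamp1, Trem2 and Ppargc1a.

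Slc2a5, the fructose transporter GLUT5 (chromosome 4, 150119283 to 150144169), had 18.3, 25.1, 6.44 and 13.2 CPM in Western-diet aortas and 26.8, 13.3, 26.3 and 8.10 CPM in normal-diet aortas at 22 weeks. At 6 weeks it had 2.19, 2.33, 1.28 and 2.74 CPM in Western-diet and 34.2, 25.4, 21.7 and 16.8 CPM in normal-diet aortas. The diets overlapped fully at 22 weeks and were far apart at 6 weeks, when every Western-diet library lay below 3 CPM. The difference was 3.28 ± 0.60 on the log2 scale (SE; adjusted p = 0.0409), the largest positive value among passing loci, from a diet effect of -0.24 ± 0.41 at 22 weeks and of -3.52 ± 0.46 at 6 weeks.

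Slc25a10, the mitochondrial dicarboxylate carrier (chromosome 11, 120491840 to 120499187), had 64.3, 86.2, 56.5 and 56.7 CPM on Western and 80.2, 61.8, 94.3 and 82.6 CPM on normal diet at 22 weeks. It had 7.24, 9.91, 11.3 and 12 CPM on Western and 44.0, 41.8, 43.5 and 31.7 CPM on normal diet at 6 weeks. The diets overlapped at 22 weeks and were wholly apart at 6 weeks. On the normal diet the level at 22 weeks was above that at 6 weeks in every library, where age and library series differ as well. The difference was 1.72 ± 0.26 (adjusted p = 0.0246).

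Acss2, which turns acetate into cytosolic acetyl-CoA (chromosome 2, 155517948 to 155576980), was apart between the diets at both times. It had 379, 686, 280 and 310 CPM on Western and 206, 172, 191 and 221 CPM on normal diet at 22 weeks, and 112, 124, 108 and 169 CPM on Western and 323, 250, 257 and 211 CPM on normal diet at 6 weeks. The 4 Western-diet libraries lay wholly above the normal-diet libraries at 22 weeks and wholly below them at 6 weeks, a double separation in opposite directions seen for 0.307% of all loci. Of the 44, 17 were separated at both times, counted whatever the directions, which their choice favours. The difference of Acss2 was 2.08 ± 0.34 (adjusted p = 0.0381), with diet effects of 1.06 ± 0.24 at 22 weeks (adjusted p = 0.0804) and -1.02 ± 0.24 at 6 weeks (adjusted p = 0.122), neither of which passed on its own.

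The promoters of Slc25a10 and Acss2 are shown because the RNA of both genes differed in its diet response and the products of both take part in the supply of precursors for lipid synthesis. Each window runs from 250 bases before to 50 bases after the RefSeq transcription start in GRCm38.p6, 5′ to 3′ on the strand of the gene, and capitals mark CCAAT, the letters read by nuclear factor Y, here found on the opposite strand as ATTGG.
Slc25a10 promoter, chr11:120491587-120491886 (+): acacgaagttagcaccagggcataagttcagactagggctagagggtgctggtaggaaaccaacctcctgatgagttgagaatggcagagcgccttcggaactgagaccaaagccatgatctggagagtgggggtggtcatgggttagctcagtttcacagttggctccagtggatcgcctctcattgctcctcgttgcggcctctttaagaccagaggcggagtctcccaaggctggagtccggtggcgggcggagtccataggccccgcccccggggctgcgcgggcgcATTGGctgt
Acss2 promoter, chr2:155517793-155518092 (+): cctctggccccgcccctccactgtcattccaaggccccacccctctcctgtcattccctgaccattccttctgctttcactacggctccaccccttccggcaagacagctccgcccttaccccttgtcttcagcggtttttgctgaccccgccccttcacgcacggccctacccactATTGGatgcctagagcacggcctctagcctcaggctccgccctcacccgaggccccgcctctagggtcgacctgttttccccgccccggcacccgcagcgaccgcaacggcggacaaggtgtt
In Slc25a10 the motif spans bases 292 to 296 of the window, just after the start site, and in Acss2 bases 178 to 182, before it. Neither window holds CACGTG or TCACNCCAC, the core of a sterol regulatory element, on either strand. Of the names at loci with a positive difference, 23 had a promoter window, and 12 of these held CCAAT, against 41.1% of all genes in the RefSeq table and 37.4% of all windows. No window of the 23 held TCACNCCAC, which occurs in 1.24% of all windows.

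In the pentose phosphate pathway, which supplies NADPH for fatty acid synthesis, the locus of transketolase (Tkt, with the microRNA gene Mir3076 inside it) and Pgd, 6-phosphogluconate dehydrogenase, both passed. The Tkt locus had 1150, 1987, 949 and 1001 CPM on Western and 1018, 925, 1434 and 998 CPM on normal diet at 22 weeks, and 420, 533, 439 and 659 CPM on Western and 1811, 1463, 1340 and 1517 CPM on normal diet at 6 weeks. The diets overlapped at 22 weeks and did not at 6 weeks (difference 1.80 ± 0.32, adjusted p = 0.0381). Pgd had 298, 556, 230 and 273 CPM on Western and 283, 221, 296 and 241 CPM on normal diet at 22 weeks. It had 110, 143, 119 and 161 CPM on Western and 400, 355, 294 and 300 CPM on normal diet at 6 weeks, again with a gap at 6 weeks only (difference 1.72 ± 0.32, adjusted p = 0.0478). Taldo1, transaldolase (1.37 ± 0.28, adjusted p = 0.0687), and G6pdx, glucose-6-phosphate dehydrogenase (1.41 ± 0.30, adjusted p = 0.0812), had positive differences that did not pass. Khk, which phosphorylates fructose, had a difference of 0.48 ± 0.29 (adjusted p = 0.563).

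Thrsp, a regulator of lipogenesis (chromosome 7, 97412938 to 97417730), had 692, 1475, 624 and 646 CPM on Western and 568, 521, 675 and 649 CPM on normal diet at 22 weeks, and 309, 399, 377 and 522 CPM on Western and 1375, 1005, 1067 and 1083 CPM on normal diet at 6 weeks. Its Western-diet libraries were all below the normal-diet libraries at 6 weeks, and at 22 weeks only Western-diet replicate 2 stood clear of the rest. The difference was 2.01 ± 0.35 (adjusted p = 0.0381). When any 1 library was left out it was 1.63 or above, but it passed in only 6 of the 16 such fits. The other enzymes of the pathway had large but uncalled differences. Acly, which splits citrate into acetyl-CoA, had a difference of 2.26 ± 0.44 (adjusted p = 0.0566) and averaged 2429 ± 1315 CPM on Western and 2084 ± 530 CPM on normal diet at 22 weeks (SD, n = 4 each), and 759 ± 217 CPM on Western and 3119 ± 434 CPM on normal diet at 6 weeks. Slc25a1, the citrate carrier, followed with 1.80 ± 0.41 (adjusted p = 0.0987), Scd1, stearoyl-CoA desaturase, with 1.71 ± 0.48 (adjusted p = 0.161), and Fasn, fatty acid synthase, with 1.61 ± 0.40 (adjusted p = 0.12). The locus of Srebf1, the transcription factor SREBP1, differed by 0.13 ± 0.19 (adjusted p = 0.847), with 458 ± 56.7 CPM on Western and 514 ± 98.1 CPM on normal diet at 22 weeks against 143 ± 13.5 and 176 ± 11.6 CPM in the same order at 6 weeks.

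Downstream of synthesis, 1 gene of glyceride assembly and 1 of fatty acid transport passed. Mogat2, which acylates monoacylglycerol, had 2.31, 1.70, 1.76 and 2.72 CPM on Western and 3.81, 1.59, 1.88 and 2.12 CPM on normal diet at 22 weeks, and 0.397, 0.742, 0.973 and 0.962 CPM on Western and 5.31, 4.27, 4.43 and 4.26 CPM on normal diet at 6 weeks. Levels were low throughout, and the gap between the diets was present at 6 weeks only (difference 2.42 ± 0.43, adjusted p = 0.0381). Fabp5, a fatty acid binding protein of macrophages and fat, had 91.0, 103, 87.3 and 88.9 CPM on Western and 84.4, 38.6, 83.0 and 42.0 CPM on normal diet at 22 weeks. It had 40.9, 39.4, 16.8 and 44.5 CPM on Western and 150, 133, 102 and 115 CPM on normal diet at 6 weeks. Fabp5 was thus separated at both times, above normal diet at 22 weeks and below it at 6 weeks (difference 2.40 ± 0.41, adjusted p = 0.0381).

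Of 15 loci for triglyceride synthesis and lipid droplets all had positive differences, 9 with an unadjusted p under 0.05 (6.89% of all loci), and the median was 0.92. Of 12 for fatty acid uptake 11 were positive and the median was 0.54. Agpat2, an acyltransferase of glyceride synthesis (1.78 ± 0.38, adjusted p = 0.0828), Plin2, a droplet coat protein (1.12 ± 0.26, adjusted p = 0.102), and Cd36, a fatty acid and lipoprotein receptor (0.87 ± 0.32, adjusted p = 0.286), did not pass. Fabp3, the muscle-type fatty acid binding protein, had a difference of 2.29 ± 0.48 (adjusted p = 0.0793), with a diet effect of 2.58 at 22 weeks (adjusted p = 0.0201) and of 0.30 at 6 weeks.

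**Figure D2:**
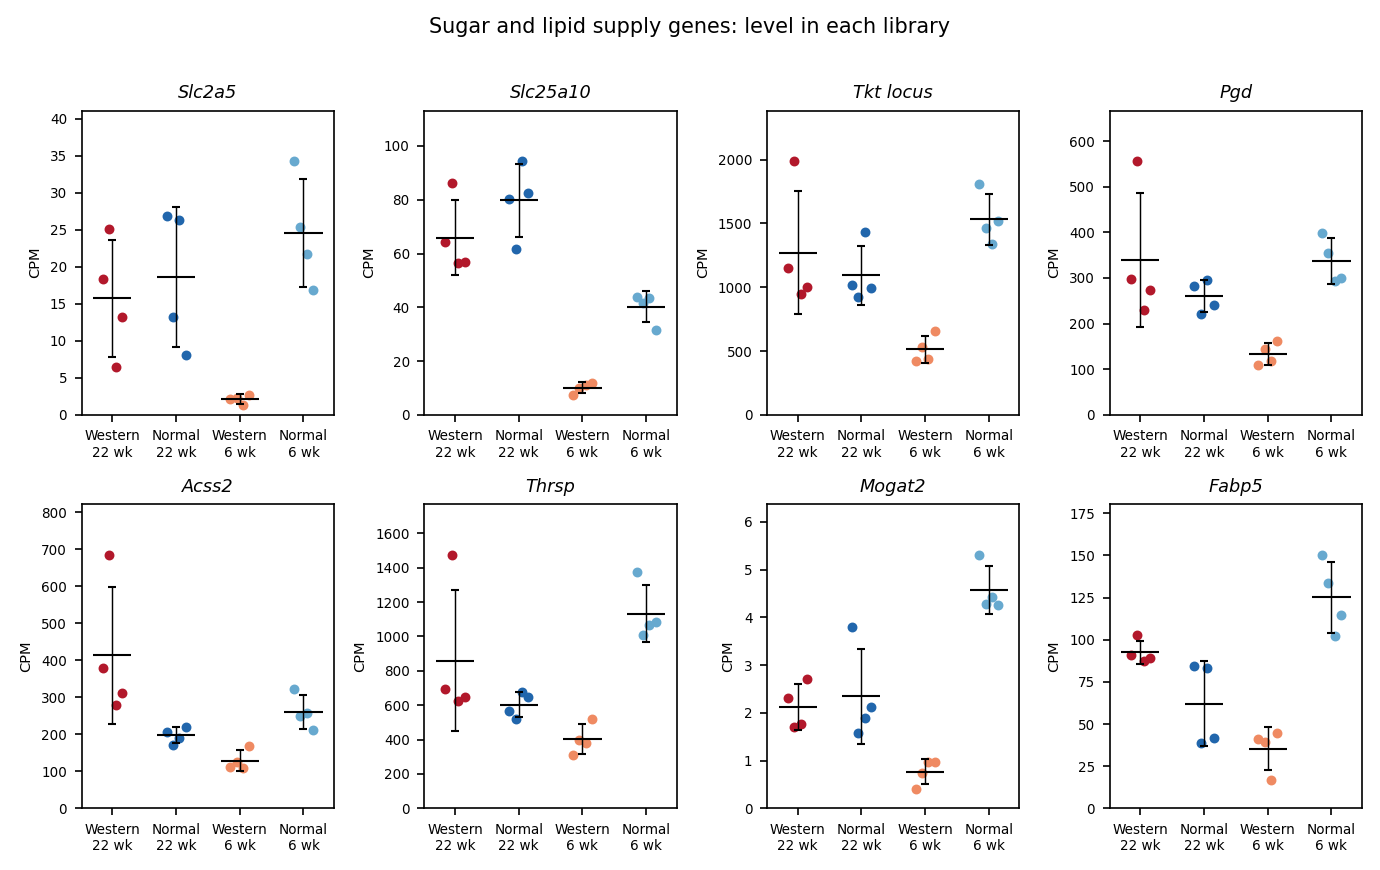
Level in CPM of 8 genes of sugar use and lipid supply, 1 point per library, with the mean (long bar) and SD (error bar) of 4 libraries, by diet and weeks of feeding. The Western-diet libraries at 6 weeks lie below all normal-diet libraries at 6 weeks in every panel, while at 22 weeks only Acss2 and Fabp5 separate the diets, with Western above normal.

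Genes of the lysosome and of lipid-laden macrophages made up another group, in which Lipa, Ctsb and the Ctsd locus also passed in the diet effect at 22 weeks. These calls at 22 weeks ended without normal-diet replicate 2 of that time and in a fit of the 8 libraries of that time alone, where no locus passed. Of 51 measured lysosomal genes, 3 passed with a positive difference, 45 were positive, and the median was 0.28. The list's median diet effect was 0.29 at 22 weeks and 0.03 at 6 weeks. Of 21 foam cell genes, 4 passed (Lipa, Ctsb, Fabp5 and the Ctsd locus, which the lists share in part), 20 were positive, and the median was 0.87. Of 25 general macrophage markers 0 passed in edgeR, limma or DESeq2, the number with an unadjusted p under 0.05 was 0 in edgeR and DESeq2 and 1 in limma, and the median difference was 0.14. That median turned to -0.17, with 7 of 25 positive, without the 4 lymphocyte-rich libraries, and was 0.01 without normal-diet replicate 2 at 6 weeks and 0.34 without Western-diet replicate 3 at 6 weeks.

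Lipa, lysosomal acid lipase (chromosome 19, 34492318 to 34527474), had 122, 137, 116 and 105 CPM on Western and 70.6, 58.9, 75.5 and 57.2 CPM on normal diet at 22 weeks. At 6 weeks it had 87.8, 83.0, 93.3 and 95.0 CPM on Western and 99.7, 113, 96.9 and 111 CPM on normal diet. The Western-diet libraries lay clearly above the normal-diet libraries at 22 weeks and just below them at 6 weeks. The difference of 1.10 ± 0.15 (adjusted p = 0.017) held a diet effect of 0.87 ± 0.11 at 22 weeks (adjusted p = 0.0179) and of -0.23 ± 0.11 at 6 weeks (adjusted p = 0.473).

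Cathepsin D, an aspartic protease of the lysosome, is counted in a locus that joins Ctsd with Ifitm10 and Gm49369 (chromosome 7, 142325837 to 142387857), so the share of each gene could not be read. The locus had 1731, 1749, 1839 and 1680 CPM on Western and 1125, 818, 1142 and 1000 CPM on normal diet at 22 weeks, and 575, 596, 532 and 698 CPM on Western and 752, 716, 750 and 721 CPM on normal diet at 6 weeks. The groups did not overlap at either time, in opposite directions, and the difference was 1.07 ± 0.16 (adjusted p = 0.0261). Ctsb, the cysteine protease cathepsin B, had 1940, 1927, 1990 and 1807 CPM on Western and 1397, 1079, 1476 and 1206 CPM on normal diet at 22 weeks. It had 822, 761, 756 and 823 CPM on Western and 916, 902, 963 and 906 CPM on normal diet at 6 weeks, the same order of groups as for Ctsd (difference 0.79 ± 0.15, adjusted p = 0.0478).

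The promoters of Lipa and Ctsd are shown because these were the lysosomal loci with the lowest p. Capitals mark CCAAT, as ATTGG, in Lipa and CACGTG, the core of the element bound by the lysosomal regulator TFEB and its relatives, in Ctsd, and both windows are from RefSeq in GRCm38.p6 with 250 bases before and 50 after the start, 5′ to 3′ on the minus strand.
Lipa promoter, chr19:34527425-34527724 (-): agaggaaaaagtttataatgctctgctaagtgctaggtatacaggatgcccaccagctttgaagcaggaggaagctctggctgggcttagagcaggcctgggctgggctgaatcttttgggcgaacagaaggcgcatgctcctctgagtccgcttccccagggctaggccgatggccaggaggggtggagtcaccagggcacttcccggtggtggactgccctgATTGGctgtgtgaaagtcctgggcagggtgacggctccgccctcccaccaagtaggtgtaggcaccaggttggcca
Ctsd promoter, chr7:142387778-142388077 (-): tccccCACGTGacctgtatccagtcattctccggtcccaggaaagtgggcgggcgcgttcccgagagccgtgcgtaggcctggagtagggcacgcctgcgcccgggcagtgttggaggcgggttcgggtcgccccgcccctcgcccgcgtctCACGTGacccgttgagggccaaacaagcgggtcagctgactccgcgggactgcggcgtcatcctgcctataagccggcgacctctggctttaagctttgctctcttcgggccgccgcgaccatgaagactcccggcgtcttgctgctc
CCAAT lies at bases 225 to 229 of the Lipa window. CACGTG, which reads the same on both strands, lies at bases 6 to 11 and 153 to 158 of the Ctsd window, and neither motif overlaps the other in these windows. CACGTG was found in 2 of the 23 promoters at loci with a positive difference (Ctsd and 9330159M07Rik) and in 0 of 5 at loci with a negative difference, against 8.09% of all genes and 7.15% of all windows.

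Other lysosomal genes had smaller positive differences that did not pass. Npc2, which carries cholesterol out of the lysosome, had a difference of 0.79 ± 0.17 (adjusted p = 0.0948), Lamp1, a membrane glycoprotein, of 0.50 ± 0.12 (adjusted p = 0.114), and Psap, the saposin precursor, of 0.63 ± 0.16 (adjusted p = 0.124). Trem2, a lipid receptor of foam cells, averaged 48.0 ± 6.6 CPM on Western and 19.5 ± 8.76 CPM on normal diet at 22 weeks, and 3.32 ± 1.92 CPM on Western and 2.17 ± 1.6 CPM on normal diet at 6 weeks (SD, n = 4 each). Its difference was 0.67 ± 0.64 (adjusted p = 0.741), and was 0.05 without normal-diet replicate 3 at 6 weeks and 1.16 without Western-diet replicate 1 at 6 weeks. Lyz2, a lysozyme of myeloid cells, averaged 1031 ± 131 CPM on Western and 532 ± 191 CPM on normal diet at 22 weeks, and 248 ± 132 CPM on Western and 202 ± 105 CPM on normal diet at 6 weeks, with a difference of 0.66 ± 0.54 (adjusted p = 0.689) that was 0.24 without normal-diet replicate 2 at 6 weeks and 1.07 without Western-diet replicate 3 at 6 weeks. The summed level of the 25 macrophage markers was 2265 to 2884 CPM on Western and 1267 to 2146 CPM on normal diet at 22 weeks, and 1131 to 1996 CPM on Western and 1099 to 1673 CPM on normal diet at 6 weeks. It was thus highest in the group in which Lipa, Ctsb and the Ctsd locus were high, and the part of macrophage number in their difference was not tested.

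**Figure D3:**
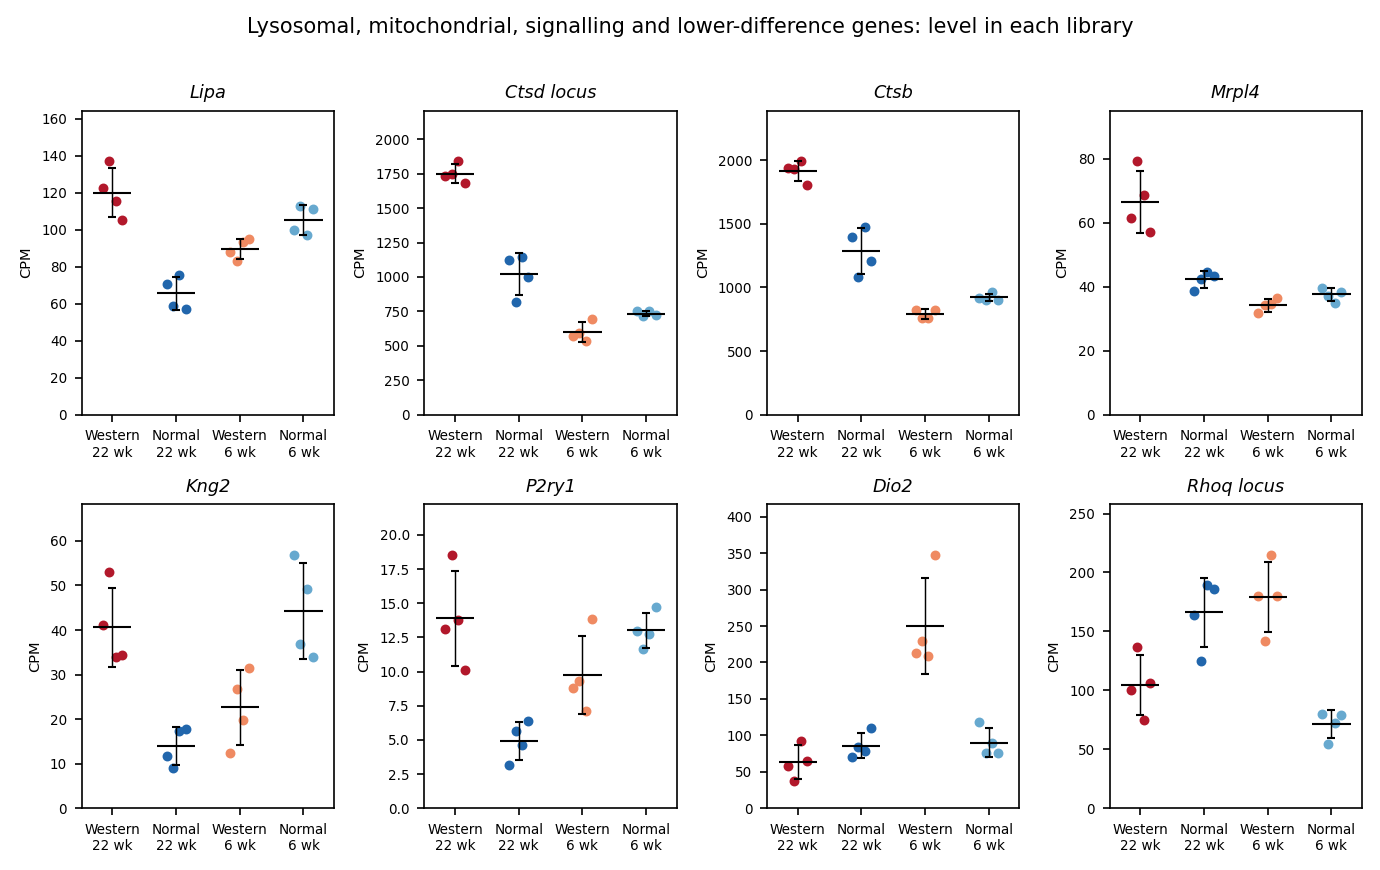
Level in CPM of lysosomal genes (Lipa, the Ctsd locus, Ctsb), a mitochondrial ribosome gene (Mrpl4), 2 signalling genes (Kng2, P2ry1) and 2 loci with a negative difference (Dio2, Rhoq), 1 point per library with the mean and SD of 4 libraries. Western-diet libraries stand above normal-diet libraries at 22 weeks in the first 6 panels, and for Dio2 and the Rhoq locus the Western-diet libraries stand above the normal-diet libraries at 6 weeks.

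Several mitochondrial and peroxisomal genes had positive differences. Mrpl4, a protein of the large mitochondrial ribosome subunit, had 61.4, 79.2, 68.6 and 57.0 CPM on Western and 38.6, 42.6, 44.7 and 43.4 CPM on normal diet at 22 weeks, and 31.7, 34.2, 34.5 and 36.6 CPM on Western and 39.8, 37.3, 34.9 and 38.5 CPM on normal diet at 6 weeks. The diets were apart at 22 weeks and overlapped at 6 weeks (difference 0.79 ± 0.14, adjusted p = 0.0381). Mcat, the malonyltransferase of mitochondrial fatty acid synthesis (1.02 ± 0.18, adjusted p = 0.0381), and Bola3, a factor of iron-sulphur cluster assembly (1.21 ± 0.21, adjusted p = 0.0381), passed as well. So did Eci3, an enoyl-CoA isomerase, at low levels of 3.51 ± 1.16 CPM on Western and 1.47 ± 0.487 CPM on normal diet at 22 weeks and 1.53 ± 0.293 CPM on Western and 2.65 ± 0.515 CPM on normal diet at 6 weeks (2.04 ± 0.38, adjusted p = 0.0478). A locus that joins Pex13, a peroxisome import factor, with 0610010F05Rik differed by 0.93 ± 0.18 (adjusted p = 0.0478).

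In the larger sets of mitochondrial enzymes most members had positive differences, but none passed. Of 36 nuclear-encoded subunits of oxidative phosphorylation, 35 had positive differences, 34 with an unadjusted p under 0.05, where 6.89% of all loci were higher. For 29 the diet effect was above 0 at 22 weeks and below 0 at 6 weeks. The list's median diet effect, however, was 0.88 at 22 weeks and only -0.15 at 6 weeks, and no member passed at either time. In the difference, none of the 36 passed in edgeR or in limma, while 11 passed in DESeq2, where 402 of 24091 loci passed as higher. The median difference was 0.99. Of 22 genes of lipolysis and fatty acid oxidation, 20 were positive, 18 with an unadjusted p under 0.05, 0 passed in edgeR or limma and 6 in DESeq2, and the median was 1.05. Their median diet effect was 0.996 at 22 weeks and -0.014 at 6 weeks. The lowest p among the subunits was that of Ndufs4, of complex I (1.13 ± 0.26, adjusted p = 0.102), and among the oxidation genes that of Mgll, monoacylglycerol lipase (1.55 ± 0.43, adjusted p = 0.16). Ucp1, the uncoupling protein of brown fat, averaged 1328 ± 575 CPM on Western and 515 ± 304 CPM on normal diet at 22 weeks, and 1478 ± 514 CPM on Western and 1792 ± 292 CPM on normal diet at 6 weeks (difference 1.64 ± 0.56, adjusted p = 0.242). Lep, the adipokine leptin, had the lowest p of the 16 white adipocyte genes (4.63 ± 1.02, adjusted p = 0.0919 in edgeR). Its difference was 3.21 in limma (adjusted p = 0.0335) and 4.63 in DESeq2 (adjusted p = 0.00208), and 4.27 to 5.84 in edgeR when 1 library was left out. Of the 16, 11 were positive and 0 passed in edgeR, against 1 higher in limma and 1 higher and 1 lower in DESeq2. At an unadjusted p under 0.05 in edgeR, 6 were higher and 1 lower (6.89% and 5.06% of all loci), around a median of 0.64. Cox8b, a subunit typical of muscle and brown fat, had a diet effect of 1.65 at 22 weeks (adjusted p = 0.0367) and of 0.07 at 6 weeks.

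Brown fat and skeletal muscle markers also had positive median differences. Of 14 measured brown adipocyte genes, 10 were positive and 4 negative, around a median of 0.95. At an unadjusted p under 0.05, 8 were higher and 2 lower (6.89% and 5.06% of all loci). Only Dio2 passed in edgeR or limma, as lower, against 4 higher and 1 lower in DESeq2, which passed 402 higher and 91 lower of all 24091 loci. The 14 brown adipocyte genes measured, of 15 listed (Zic1 was below the filter), summed to 2614 to 5035 CPM on Western and 1377 to 2512 CPM on normal diet at 22 weeks. At 6 weeks they summed to 2940 to 5052 CPM on Western and 3416 to 4360 CPM on normal diet, so that the lowest levels were those of the normal diet at 22 weeks. Skeletal muscle markers, measured at 16 loci for 17 of 22 genes, summed to 89.9 to 462 CPM on Western and 59.8 to 116 CPM on normal diet at 22 weeks, and 58.4 to 153 CPM on Western and 116 to 377 CPM on normal diet at 6 weeks. Myh2, Myh7, Tnnt1, Ryr1 and Cacna1s were below the filter. The 16 loci had a median difference of 4.16 in edgeR, but of 2.08 in limma on log2(FPKM + 0.5), and all 16 were positive. The edgeR median was 3.54 to 4.71 when 1 library was left out. In edgeR 11 had an unadjusted p under 0.05, and 0 passed in edgeR or limma, against 7 in DESeq2. No listed marker of brown fat or skeletal muscle was without any count in all libraries. Mylpf, a fast muscle myosin light chain, had the lowest p of that list (4.82 ± 0.99, adjusted p = 0.0746). The part of attached fat and muscle in the differences of the mitochondrial and lipid genes was not tested. Without Western-diet replicate 2 at 22 weeks and Western-diet replicate 4 at 6 weeks, 42 loci passed, 27 of them among the 44, and the medians were 0.84 for oxidative phosphorylation, 0.86 for lipolysis and oxidation and 3.74 for skeletal muscle. In skeletal muscle genes replicate 2 at 22 weeks (score 1.10) lay with replicates 1 and 3 (1.18 and 1.46), and Western-diet replicate 4 at 22 weeks, which is, stays in that fit. Without that library alone 41 loci passed.

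**Figure D4:**
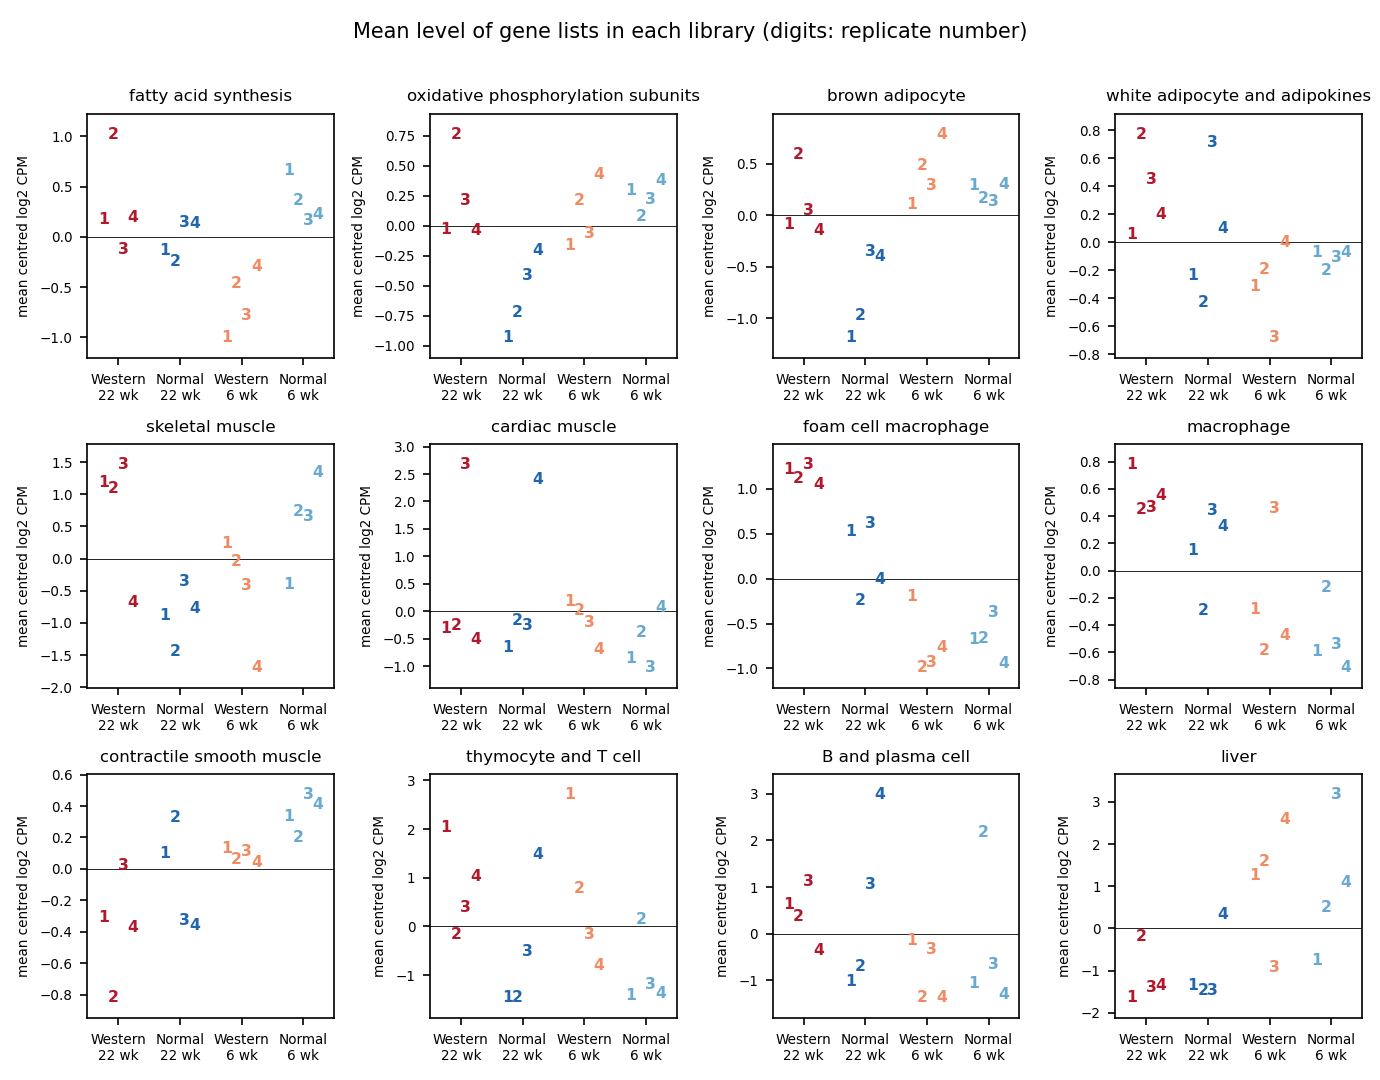
Mean log2 CPM of each gene list after centring each gene over the 16 libraries, by group, with the replicate number as the plotting symbol. Western-diet replicate 2 at 22 weeks is highest in fatty acid synthesis (1.02) and oxidative phosphorylation (0.76), skeletal muscle is high in Western-diet replicates 1 to 3 at 22 weeks (1.10 to 1.46) and low in replicate 4 (-0.69), and foam cell genes separate the diets at 22 weeks, with 1.05 to 1.27 on Western and -0.24 to 0.62 on normal diet.

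Genes of cell signalling with a positive difference included a kinin precursor and a nucleotide receptor. Kng2, a kininogen (chromosome 16, 22985854 to 23029482), had 41.2, 52.9, 34.0 and 34.3 CPM on Western and 11.8, 9.05, 17.5 and 17.8 CPM on normal diet at 22 weeks, and 12.4, 26.8, 19.9 and 31.5 CPM on Western and 56.9, 36.9, 49.2 and 34.0 CPM on normal diet at 6 weeks. It was separated at both times in opposite directions, and the difference was 2.50 ± 0.40 (adjusted p = 0.0325). P2ry1, a receptor for ADP, had 13.1, 18.5, 13.8 and 10.1 CPM on Western and 3.16, 5.62, 4.60 and 6.37 CPM on normal diet at 22 weeks. It had 8.80, 9.34, 7.09 and 13.8 CPM on Western and 12.9, 11.7, 12.7 and 14.7 CPM on normal diet at 6 weeks, so that the diets were apart at 22 weeks only (difference 1.91 ± 0.34, adjusted p = 0.0381).

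Kit, the stem cell factor receptor, averaged 32.4 ± 8.30 CPM on Western and 26.0 ± 3.12 CPM on normal diet at 22 weeks, and 11.7 ± 3.65 CPM on Western and 33.6 ± 5.43 CPM on normal diet at 6 weeks. Its difference was 1.83 ± 0.32 (adjusted p = 0.0381), with a diet effect of 0.32 at 22 weeks and of -1.52 at 6 weeks (adjusted p = 0.00955). Adcy10, the bicarbonate-sensing adenylyl cyclase, had 5.22 ± 2.05 CPM on Western and 6.08 ± 0.944 CPM on normal diet at 22 weeks against 2.19 ± 0.801 and 14 ± 1.84 CPM in the same order at 6 weeks (2.46 ± 0.41, adjusted p = 0.0381). Of the 13 vasoactive peptide and receptor genes measured, Kng2 alone passed, and 6 were positive.

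The lowest p values in the positive direction belonged to Myo5c and to a locus named Nfrkb. Myo5c, an unconventional myosin of secretory vesicles (chromosome 9, 75232020 to 75305451), had 18, 36.9, 20.2 and 20.8 CPM on Western and 8.32, 9.28, 8.03 and 12 CPM on normal diet at 22 weeks, and 12.2, 16.8, 14.1 and 14.3 CPM on Western and 30.4, 22.7, 25.1 and 25.4 CPM on normal diet at 6 weeks. The groups were apart at both times, Western above normal at 22 weeks and below it at 6 weeks (difference 2.20 ± 0.29, adjusted p = 0.0149). The locus named Nfrkb holds no annotated transcript, has no strand assigned and does not overlap the Nfrkb gene. It lies 876 bases past the transcript end of Tmem45b, a membrane protein gene on the minus strand that passed too. It differed by 2.45 ± 0.30 (adjusted p = 0.0149) and Tmem45b by 2.16 ± 0.35 (adjusted p = 0.0325), and whether they are separate transcripts was not tested.

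Other genes that passed with a positive difference had low or moderate levels. Sbk1, a serine/threonine kinase, averaged 120 ± 44.2 CPM on Western and 88.5 ± 19.6 CPM on normal diet at 22 weeks, and 18.5 ± 6.39 CPM on Western and 61.3 ± 8.64 CPM on normal diet at 6 weeks (2.16 ± 0.38, adjusted p = 0.0381). Its libraries overlapped between diets at 22 weeks and were lower on the Western diet at 6 weeks. Fsd2, a protein with fibronectin and SPRY domains (2.0 ± 0.30), Myoc, the secreted glycoprotein myocilin (1.34 ± 0.24), and Akr1b8, an aldo-keto reductase (1.23 ± 0.21), passed with diet effects above 0 at 22 weeks and below 0 at 6 weeks. Slc38a10, of an amino acid transporter family, had the smallest positive difference that passed (0.66 ± 0.12, adjusted p = 0.0478).

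Negative differences passed at 9 loci, among them Dio2 and the Rhoq locus. Dio2, the deiodinase that activates thyroid hormone in brown fat and elsewhere (chromosome 12, 90724552 to 90738438), had 58.1, 37.8, 93.0 and 65.2 CPM on Western and 70.3, 84.5, 78.9 and 111 CPM on normal diet at 22 weeks. At 6 weeks it had 214, 229, 208 and 348 CPM on Western and 118, 76.3, 89.4 and 76.2 CPM on normal diet. Only the short-fed Western group was high, and the difference was -1.91 ± 0.35 (adjusted p = 0.0418), opposite in sign to the median of 0.95 for the brown adipocyte genes. Ppargc1a, a coactivator of mitochondrial genes, had a difference of -1.70 ± 0.70 (adjusted p = 0.346), which was -0.88 without normal-diet replicate 3 at 22 weeks, and averaged 124 ± 71.3 CPM on Western and 30.8 ± 8.99 CPM on normal diet at 6 weeks.

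The locus of Rhoq, a small GTPase linked to insulin-driven glucose transporter traffic in fat cells, is joined with Gm50012 (chromosome 17, 86963082 to 87000069). It had 100, 137, 74.7 and 106 CPM on Western and 164, 125, 189 and 186 CPM on normal diet at 22 weeks, and 180, 141, 215 and 180 CPM on Western and 79.7, 54.3, 72.1 and 79.4 CPM on normal diet at 6 weeks. Western-diet libraries were all above normal-diet libraries at 6 weeks and mostly below them at 22 weeks (difference -2.0 ± 0.27, adjusted p = 0.0149). Irs2, an insulin receptor substrate, did not pass, at -1.36 ± 0.29 (adjusted p = 0.0793). Cacna2d3, a calcium channel subunit (-1.54 ± 0.26, adjusted p = 0.0381), Endov, an inosine-specific endonuclease (-1.04 ± 0.19, adjusted p = 0.0435), and Ric8b, a chaperone of G protein alpha subunits (-0.63 ± 0.11, adjusted p = 0.0381), passed. Ric8b was tightly measured, with 60.3 ± 2.90 CPM on Western and 71.7 ± 2.69 CPM on normal diet at 22 weeks, and 100 ± 8.73 CPM on Western and 77.4 ± 4.39 CPM on normal diet at 6 weeks (SD, n = 4 each).

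Among other genes with the lowest p in the negative direction, which did not pass, were Selenow, a small selenoprotein (-0.76 ± 0.15, adjusted p = 0.0588), Chka, choline kinase (-1.01 ± 0.20, adjusted p = 0.0647), Gria1, a glutamate receptor subunit (-2.54 ± 0.55, adjusted p = 0.0836), and Serpina3n, a secreted protease inhibitor (-1.29 ± 0.29, adjusted p = 0.0949). The 16 glucocorticoid response genes had a median difference of -0.72, with 13 negative, 6 at an unadjusted p under 0.05 (5.06% of all loci). Of the 16, 0 passed in edgeR or limma, against 2 lower in DESeq2, which passed 91 of all 24091 loci as lower. The locus of Fkbp5, a cochaperone of the glucocorticoid receptor, had the lowest p (-1.63 ± 0.37, adjusted p = 0.098). It averaged 47.2 ± 6.72 CPM on Western and 102 ± 36.4 CPM on normal diet at 22 weeks, and 40.9 ± 6.32 CPM on Western and 28.4 ± 10.6 CPM on normal diet at 6 weeks, so the normal-diet level at 22 weeks was the highest and the most variable. Of 23 immediate early genes, which respond quickly to handling and stress, 21 were negative, 4 with an unadjusted p under 0.05, and 0 passed in edgeR, limma or DESeq2, with a median of -0.50. These lists share Dusp1, and the part of tissue handling in their differences was not tested.

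Of the 44 loci, 8 hold no annotated transcript, as do 8390 of all 24091 tested. The locus named Nfrkb is 1 of them. Another 3 lie in A530053G22Rik on chromosome 6 with gaps of 0.37 and 3.6 kb between them, outside its annotated exons, and differed by 2.92 ± 0.45, 2.69 ± 0.48 and 2.56 ± 0.44, with the diets apart at both times. Whether they are pieces of 1 transcript was not tested, so the 44 loci cannot be counted as independent. A short locus in 2010110G14Rik (2.37 ± 0.45) and a locus named Nkain2 (-3.12 ± 0.56) had mean levels of at most 2.19 CPM in every group. A locus named Erich1 was listed at 0 in all 4 normal-diet libraries at 6 weeks and in 1 Western-diet library at 22 weeks, so no fold is given for it. The small locus Gm25321 (-3.86 ± 0.69) was at 0 in 2 of the 4 normal-diet libraries at 6 weeks and did not exceed 0.77 CPM in any library.

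Further loci share genes or neighbours. Gm45909 lies within Ces1d, a carboxylesterase gene, on the same strand (1.94 ± 0.35, adjusted p = 0.0409). A locus joining 9330159M07Rik with Gm26135 differed by 1.07 ± 0.18 (adjusted p = 0.0381). Slc25a10 and Slc38a10 lie 340 kb apart on chromosome 11, and Slc2a5 and Pgd lie 953 kb apart on chromosome 4.

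Genes of autophagy, the process named in the study's title, had median differences close to that of all loci tested (-0.05). Of 32 core autophagy genes, 18 were positive, 0 passed in edgeR, limma or DESeq2, 4 were higher and 2 lower at an unadjusted p under 0.05, and the median was 0.05. Of 31 receptors and regulators, 19 were positive, 0 passed in any of the 3 tools, 4 were higher and 2 lower at an unadjusted p under 0.05, and the median was 0.08. Over all loci tested, 6.89% were higher and 5.06% lower at that threshold. The lowest p values were those of a locus that joins Gabarap, a membrane adaptor of autophagosomes, with Ctdnep1 and Gm44349 (0.40 ± 0.12, adjusted p = 0.193), and of the Foxo1 locus (-0.53 ± 0.15, adjusted p = 0.177). The 2 medians were -0.01 to 0.07 and 0.04 to 0.12 when 1 library was left out. A median near 0 does not show that the diet effects of single genes were equal at the 2 times.

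Cholesterol synthesis and uptake genes had a median of 0.12, with 13 of 23 positive, 5 higher and 2 lower at an unadjusted p under 0.05, and 0 passing in edgeR or limma against 3 in DESeq2. For this and the next lists, the shares of all loci at that unadjusted threshold were 6.89% higher and 5.06% lower. DESeq2 passed 402 higher and 91 lower of all 24091 loci. The median of the cholesterol genes was -0.10 without Western-diet replicate 1 at 6 weeks, 0.37 without Western-diet replicate 4 at 6 weeks and -0.02 without the 4 lymphocyte-rich libraries. Insig1, a sterol-responsive brake on SREBP, had the lowest p (1.63 ± 0.37, adjusted p = 0.0974), with 309 ± 138 CPM on Western and 94.4 ± 21.9 CPM on normal diet at 22 weeks, and 103 ± 25.5 CPM on Western and 97.1 ± 18.2 CPM on normal diet at 6 weeks. For contractile smooth muscle, 6 of 21 genes were positive around a median of -0.06, with 2 higher and 0 lower at an unadjusted p under 0.05, and 0 passing in any of the 3 tools. That median was -0.23 without Western-diet replicate 3 at 22 weeks and 0.14 without normal-diet replicate 2 at 22 weeks. Genes of modulated smooth muscle and cartilage-like matrix, of which 9 of 26 listed were below the filter, had a median of 0.43. Of the 17 measured, 13 were positive, 4 of them at an unadjusted p under 0.05, and 0 passed in edgeR or limma against 1 in DESeq2. When 1 library was left out the median was 0.30 to 0.61, with 1 to 7 higher at an unadjusted p under 0.05. Acan, the cartilage proteoglycan aggrecan, had the lowest p (1.34 ± 0.28, adjusted p = 0.077). The 15 thymocyte and T cell genes had a median of -1.50 that rested on single libraries and was 0.31 without normal-diet replicate 4 at 22 weeks.

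**Figure D5:**
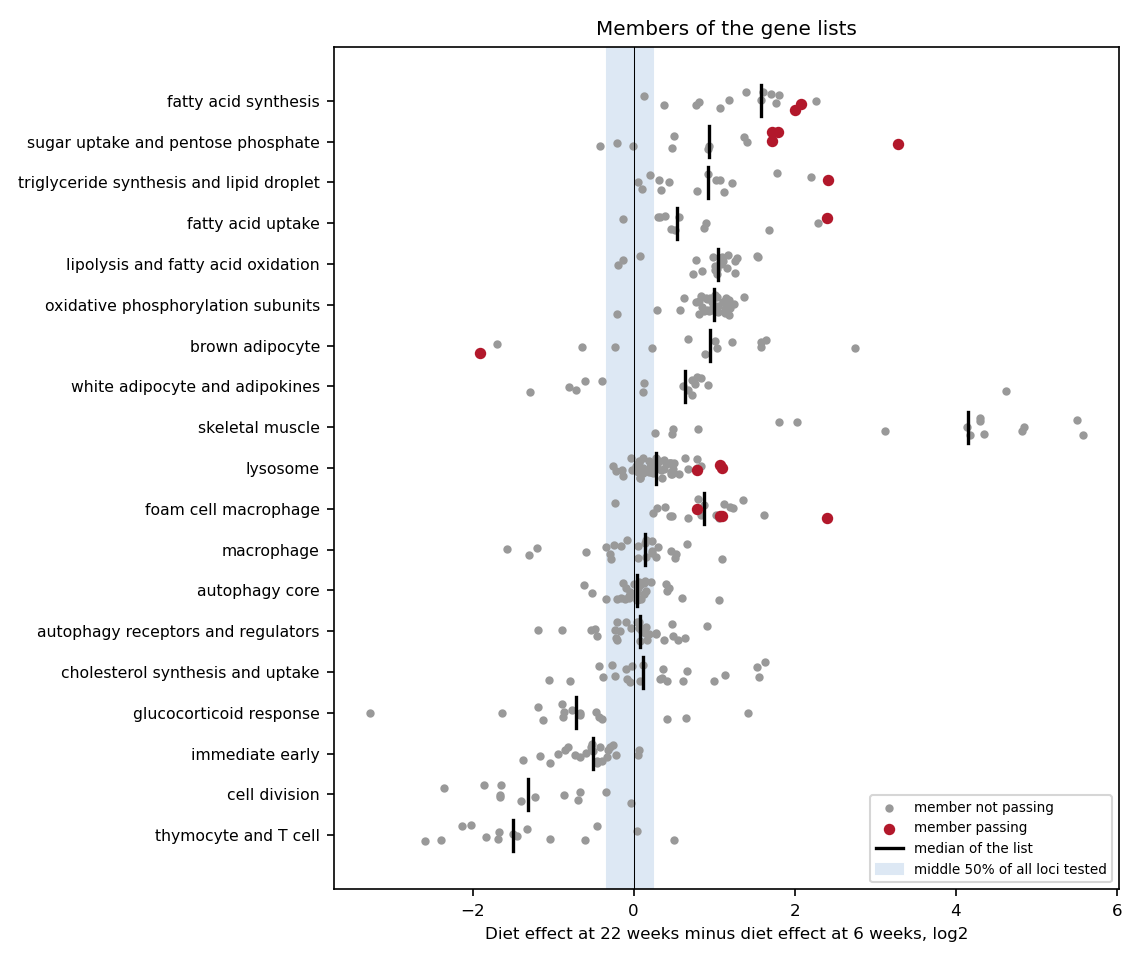
Difference of the diet effects (22 minus 6 weeks, log2) of each measured member of 19 gene lists, with the list median as a bar, passing members in red, and the middle 50% of all loci tested as a shaded band. Medians in edgeR run from 4.16 for skeletal muscle and 1.58 for fatty acid synthesis to -1.50 for thymocyte and T cell genes, and those of the autophagy lists (0.05 and 0.08) lie near 0. In limma on log2(FPKM + 0.5) the skeletal muscle median was 2.08 and the thymocyte and T cell median -0.40.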

How the data were processed

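The deposited table gives an estimated count and an FPKM for 70603 assembled loci in each library. Per the submitters' processing notes, the authors trimmed reads with cutadapt 1.9 and used FastQC and GRCm38; the aligner, the counter and the strand setting behind the estimated counts and FPKM are not stated there. The deposited estimated counts are whole numbers whose low values cluster at 4 (35277 values, against 14716 of 3 and 9394 of 5). The authors' FPKM is written as 1e-04 where the count is 0. Columns were matched to samples by title. Loci without a gene name (0.606% of counts) were left out.

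Loci with an FPKM of 1 or more in 4 of 16 libraries were fitted together with edgeR 4.0.16 (TMM scaling, quasi-likelihood F test, R 4.3.3) as 4 group means, with Benjamini-Hochberg adjustment over 24091 loci and a threshold of 0.05. SE is the log2 value divided by the square root of F. limma 3.58.1 on log2(FPKM + 0.5) and DESeq2 1.42.0 were alternatives, beside other scaling, filters, a replicate block and leaving out libraries. Replicates with 1 number did not deviate together.

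Genes were named by a rule: passing loci by size of difference and by p, and the passing and lowest-p members of each list. Some loci that the rule names are not reported here. The members and lists were chosen with earlier results of these data known. Gene structure is from GENCODE and promoters from RefSeq.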

Additional observations from a re-analysis of the deposited data

Results flagged for a closer look

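The diet effects differed between 22 and 6 weeks at 44 loci by edgeR's test of the difference, 35 with a higher and 9 with a lower diet effect at 22 weeks.

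In each group of 4 libraries the gap between an extreme library and its nearest neighbour was divided by the range of the group, and a ratio above Dixon's 95% critical value marked a library as apart. Of 316 groups of 4 values, from the loci reported here and the list scores, 16 (5.06%) were marked, and chance marks about 1 in 20. Among passing loci, Western-diet replicate 2 at 22 weeks was high for Thrsp (ratio 0.92), Tmem45b (ratio 0.93) and Myo5c (ratio 0.852). Normal-diet replicate 3 at 22 weeks was high for Tmem45b (ratio 0.848), and normal-diet replicate 4 at 22 weeks for the 0610010F05Rik and Pex13 locus (ratio 0.835). Western-diet replicate 4 at 6 weeks was high for Dio2 (ratio 0.853). Normal-diet replicate 1 at 6 weeks was high for Mogat2 (ratio 0.834).

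Among list scores, Western-diet replicate 2 at 22 weeks was high in sugar uptake and pentose phosphate genes (ratio 0.847), and Western-diet replicate 4 at 22 weeks was low in skeletal muscle genes (ratio 0.829). Normal-diet replicate 2 at 22 weeks was low in autophagy receptors and regulators (ratio 0.841), and normal-diet replicate 4 at 22 weeks was high in liver genes (ratio 0.934). Western-diet replicate 3 at 6 weeks was low in cholesterol efflux genes (ratio 0.934). Normal-diet replicate 2 at 6 weeks was high in antigen presentation (ratio 0.856) and thymocyte and T cell genes (ratio 0.86), and normal-diet replicate 3 at 6 weeks was high in sugar uptake and pentose phosphate genes (ratio 0.901) and low in Schwann cell and nerve genes (ratio 0.855).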

How the results depend on the processing

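None of the 44 loci changed sign in an alternative, which their choice by a small p makes likely and which shows no stability. Their number did not hold: 493 loci passed in DESeq2, 26 in limma on log2(FPKM + 0.1), 26 with no FPKM filter, and 3 to 74 when 1 library was left out. With the replicate number as a replicate block 0 passed in edgeR, with 2621 at an unadjusted p under 0.05. Without the 4 libraries highest in lymphocyte genes, a choice made after the data were seen, 0 passed. For the diet effect at 22 weeks, 55 loci passed in edgeR. The number was 829 in DESeq2, 146, 140 and 147 in limma with pseudocounts of 0.5, 0.1 and 1, 12 with no filter, 87 with an FPKM of 5 or more, 26 with the replicate block, 0 from the 8 libraries of that time alone (2841 at an unadjusted p under 0.05), and 0 to 429 when 1 library was left out. It was 318 without the lymphocyte-rich libraries and 17 without Western-diet replicate 2 at 22 weeks and Western-diet replicate 4 at 6 weeks, chosen likewise. For the diet effect at 6 weeks, 68 loci passed in edgeR, 458 in DESeq2, 108 in limma with a pseudocount of 1, 116 in limma voom with library weights, 28 with the replicate block, 24 and 117 without those sets of libraries, and 30 to 94 when 1 library was left out. The median of the thymocyte and T cell genes (-1.50) was 0.12 with voom weights, 0.15 without the lymphocyte-rich libraries, and -2.31 to 0.31 when 1 library was left out. The causes were not tested.

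With 4 libraries a group and a common biological coefficient of variation of 32.7%, single loci near the threshold are the least certain, and calls that miss it do not show equal diet effects.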

Other observations

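Lists not described above include core clock, clock output, interferon, endothelial and matrix genes. Of 16 core clock genes 15 were measured, 10 were positive, and the median was 0.31 (0.17 to 0.39 when 1 library was left out). Of 18 interferon-stimulated genes 16 were positive, with a median of 0.29. That direction turned without the 4 lymphocyte-rich libraries, with 4 of 18 positive and a median of -0.26, and the median was -0.07 without normal-diet replicate 2 at 6 weeks. Endothelial genes had a median of 0.07, with 11 of 20 positive, and -0.04 without Western-diet replicate 2 at 6 weeks. Matrix genes had a median of -0.05, with 13 of 29 positive, and 0.08 without Western-diet replicate 2 at 22 weeks. Of 11 clock output genes 7 were positive, with a median of 0.12, and 0 passed in edgeR or limma against 2 higher in DESeq2. Over all 24091 loci, DESeq2 passed 402 as higher and 91 as lower. No core clock, interferon-stimulated, endothelial or matrix gene passed in edgeR or limma, and 1 passed in DESeq2, a matrix gene. At an unadjusted p under 0.05 in edgeR, 6.89% of all loci were higher and 5.06% lower. At that threshold 3 core clock genes were higher and 2 lower, and 2 clock output genes higher and 2 lower. Of the others, 2 interferon-stimulated genes were higher and 1 lower, 1 endothelial gene higher and 1 lower, and 2 matrix genes higher and 1 lower.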
